A study of Homo sapiens with 12 samples.

Results

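The PADI cluster and the neighbouring genes RCC2 and ARHGEF10L lie on chromosome 1 of GRCh38. The locus holds 7 of the 20033 protein-coding genes of the RefSeq table, in the order PADI2, PADI1, PADI3, PADI4, PADI6, RCC2 and ARHGEF10L. It was chosen from the H3K27me3 peak lists themselves: between 17.2 and 17.7 Mb, 2 regions had a peak in both succinate libraries and in neither control library. The H3K27me3 difference between treatments at the locus is therefore described without a test. Neither of these 2 regions overlapped a PADI gene. One lay between RCC2 and ARHGEF10L and the other within ARHGEF10L, and PADI2 lies wholly before the 17.2 Mb border.

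CUT&Tag libraries were made from HepG2/C3A, an established human hepatocellular carcinoma line. In CUT&Tag an antibody brings a transposase to the chromatin it recognises, and the released fragments are sequenced. Over 48 hours cells were kept with 10 mM sodium succinate or without it, the latter named a vehicle control in the series' design text. For each treatment there were 2 libraries with an antibody to H3K27me3 (histone H3 trimethylated at lysine 27) and 2 with an antibody to succinyllysine on any protein (Ksu), called control 1, control 2, succinate 1 and succinate 2 after their replicate numbers. The labels call the replicates biological but do not say that they came from separate cultures, so p-values measure the spread between these libraries only. All groups are of a single line. Values were not set against an antibody background here, since the 4 IgG samples were left aside. The threshold of the deposited peak lists is not given, so whether it drew on IgG is unknown. The series' title places the work in the question of whether succinylation stabilises repressive chromatin.

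H3K27me3 is laid down by Polycomb repressive complex 2 and often covers silent genes as broad domains. Succinyllysine forms when a succinyl group, usually from succinyl-CoA, is joined to lysine. The PADI genes encode the peptidylarginine deiminase family, whose active members are calcium-dependent enzymes that turn arginine in proteins into citrulline. PADI1 and PADI3 act mainly in epidermis and hair follicles, PADI4 is best known from neutrophils, where it citrullinates histones, PADI6 belongs to the oocyte, and PADI2 is found in many tissues. RCC2 is a mitotic and cell adhesion regulator that works with the chromosomal passenger complex. ARHGEF10L is a guanine nucleotide exchange factor.

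The promoter sequences of the locus differ in their content of CG dinucleotides, and the H3K27me3 lists differed among them. The RefSeq promoter table (GRCh38.p14) held windows for 6 of the 7 genes, 12 windows in all, of which 7 belong to ARHGEF10L; PADI3 is not in the table. The 250 bases before 4 transcript starts are shown 5′ to 3′ with every CG in capitals, because they pair CG-rich and CG-poor starts with different H3K27me3 patterns.
ARHGEF10L, plus strand, chr1:17539448-17539697: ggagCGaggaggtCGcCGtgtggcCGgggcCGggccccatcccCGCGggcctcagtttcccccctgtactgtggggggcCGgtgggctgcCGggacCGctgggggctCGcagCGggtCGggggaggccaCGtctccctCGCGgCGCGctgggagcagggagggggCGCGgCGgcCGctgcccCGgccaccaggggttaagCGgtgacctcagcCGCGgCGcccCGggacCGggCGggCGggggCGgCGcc
RCC2, minus strand, chr1:17438537-17438786: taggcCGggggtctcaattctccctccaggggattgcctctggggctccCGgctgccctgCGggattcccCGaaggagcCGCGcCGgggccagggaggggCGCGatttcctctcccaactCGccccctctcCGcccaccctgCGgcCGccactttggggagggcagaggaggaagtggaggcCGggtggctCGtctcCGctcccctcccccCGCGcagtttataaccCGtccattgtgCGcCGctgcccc
PADI2, minus strand, chr1:17119452-17119701: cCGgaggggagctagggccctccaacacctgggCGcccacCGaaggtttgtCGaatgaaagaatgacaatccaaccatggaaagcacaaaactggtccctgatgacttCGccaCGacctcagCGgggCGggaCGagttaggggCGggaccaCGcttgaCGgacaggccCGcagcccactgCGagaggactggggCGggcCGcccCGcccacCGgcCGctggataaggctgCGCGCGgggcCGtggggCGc
PADI1, plus strand, chr1:17204878-17205127: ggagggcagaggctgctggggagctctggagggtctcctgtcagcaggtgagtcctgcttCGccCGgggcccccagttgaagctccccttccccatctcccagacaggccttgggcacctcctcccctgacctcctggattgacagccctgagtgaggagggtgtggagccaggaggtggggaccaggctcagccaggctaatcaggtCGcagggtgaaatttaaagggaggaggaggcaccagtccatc
The ARHGEF10L stretch held 33 CG, a number reached by 8.14% of the 34943 promoter windows, against a median of 11. PADI2 held 24, RCC2 21 and PADI1 3, and the stretches before the PADI4 and PADI6 starts held 3 and 2. The letters TATAAA, searched on both strands, occurred before the PADI4 and RCC2 starts and in 10.8% of all windows.

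The lists behind these results differed in size. H3K27me3 lists held 19133 and 5813 peaks in control against 9985 and 5531 in succinate, covering 3.83 to 6.51% of the chromosomes. Ksu lists held 76702 to 629903 peaks and covered 2.63 to 10.8%. Read depth is unknown from peak lists. The deposited signal was a whole multiple of a library-specific step, so signal is given in such steps, and the smallest total signal of any listed peak is called the floor of a library. H3K27me3 floors were 51892 and 211123 steps in control against 132374 and 330250 in succinate. Of 8 hepatocyte marker genes, including ALB and HNF4A, 0 had an H3K27me3 peak over their body in any library, as was true of 15018 of the 20033 protein-coding genes.

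H3K27me3 covered much of the 500 kb window in every library and more of it in succinate. Peaks lay over 40.9 and 32.7% of its bases in control (36.8 ± 5.77%, SD, n = 2) and over 55.5 and 60.4% in succinate (58.0 ± 3.51%, SD, n = 2). The treatments did not overlap, and the means differed by 21.2 percentage points. The number of peaks was not higher, with 13 and 7 in control against 8 and 9 in succinate. Peaks were wider instead: their median width was 12.8 and 14.6 kb in control against 32.9 and 30.6 kb in succinate. Over all chromosomes the median peak was also of unequal width, at 6767 and 14406 bp in control against 11488 and 17454 bp in succinate. Among 6101 windows of 500 kb, the locus had more H3K27me3 than 97.0 and 97.4% in control and than 98.8 and 99.4% in succinate. Cover was higher in both succinate libraries in 5.65% of those windows, a share from the same contrast that chose this locus.

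**Figure D1:**
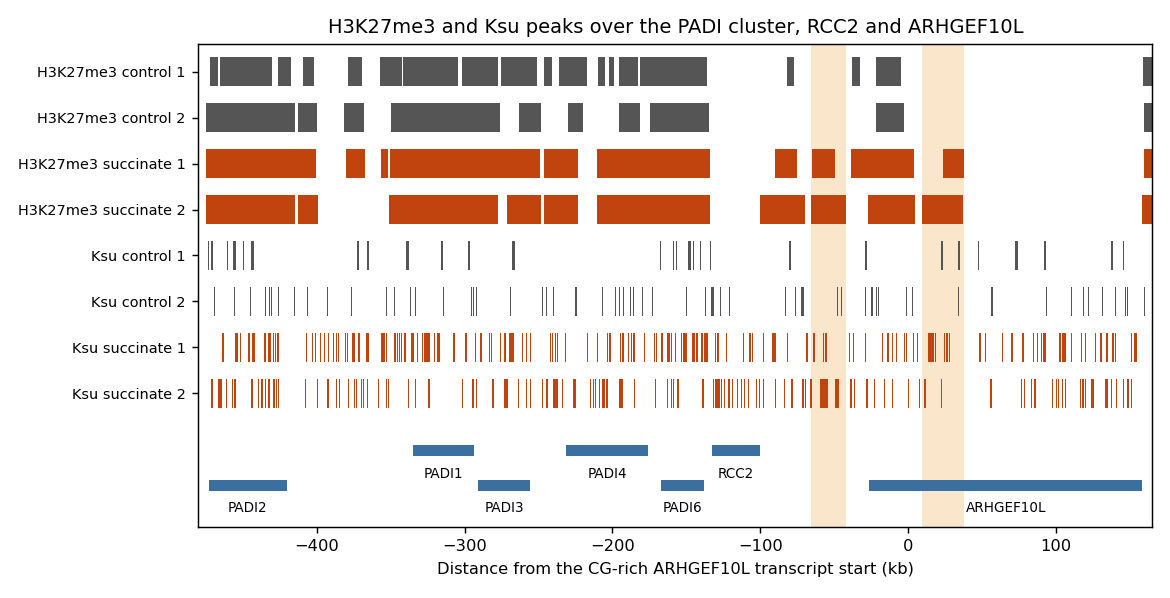
Peaks of 4 H3K27me3 and 4 Ksu libraries (rows, control grey, succinate orange) against the distance in kb from the CG-rich ARHGEF10L transcript start, with gene bodies in blue and the 2 succinate-only H3K27me3 regions shaded. H3K27me3 spans the PADI genes in all 4 libraries, stops before RCC2 and, in succinate, covers most of the stretch from RCC2 into ARHGEF10L.

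The 5 PADI genes carried H3K27me3 in every library. Of the 7 members, 6 had a peak in all 4 libraries, against 12.3% of all protein-coding genes. PADI6, the oocyte member of the PADI family (chr1:17372196-17401699), was covered over 100% of its body in all 4 libraries. The peak over it ranked high by total signal, at 216 of 19133 and 292 of 5813 in control against 196 of 9985 and 206 of 5531 in succinate. The base of highest signal lay at 17386502 in both control libraries, at 17386484 in succinate 2 and at 17389014 in succinate 1.

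PADI1, an epidermal deiminase (chr1:17205128-17246007), was covered over 93.4 and 100% in control against over 100% in both succinate libraries. PADI2, the PADI gene found in many tissues (chr1:17066761-17119451), gave 87.9 and 100% in control and again 100% in both succinate libraries. For both genes control 2 already equalled succinate, so the treatments overlapped. PADI3, the hair follicle deiminase (chr1:17249098-17284233), gave 94.3 and 63.2% in control against 100 and 83.1% in succinate. Its libraries interleaved, and without control 2 the difference of means was -2.72 percentage points, with succinate lower.

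PADI4, the histone deiminase of neutrophils (chr1:17308197-17364004), was covered over 73.3 and 44.3% in control (58.8 ± 20.5%, SD, n = 2). In succinate it was covered over 77.4 and 77.7% (77.6 ± 0.162%, SD, n = 2). Both succinate libraries lay above both control libraries, and control 2 was the lowest. Control 1 had 5 peaks over the gene and each of the other 3 libraries had 2. Within the gene 4 stretches of 387 to 3469 bp were under peaks of both succinate libraries and no control library, and 1 stretch of 3428 bp had the opposite pattern. The 23963 bp gap between PADI3 and PADI4 gave 62.2 and 28.9% in control against 87.2 and 90.8% in succinate. The 85.7 kb gap between PADI2 and PADI1 did not follow, with 48.6 and 54.8% in control against 62.0 and 41.8% in succinate.

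RCC2 (chr1:17406760-17439677), the mitotic regulator, was nearly free of the mark. H3K27me3 covered 0% of its body in control 1, control 2 and succinate 1 and 0.428% in succinate 2. The peak over PADI6 ended 2.83 and 1.85 kb before RCC2 in control against 1.21 and 1.05 kb before it in succinate. In rising coordinates, the next peak began 18.2 and 77.9 kb beyond the RCC2 body in control 1 and control 2. In succinate 1 it began 10.1 kb beyond that body. In succinate 2 the next peak began inside the gene and covered its 141 bases of highest coordinate. These lie on the promoter side, since RCC2 is on the minus strand. The RCC2 body thus separated the PADI domain from the peaks on its other side in all 4 libraries.

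The stretch from RCC2 into ARHGEF10L held most of the difference. In the 73.8 kb gap between the genes, H3K27me3 covered 13.8 and 0% in control (6.90 ± 9.76%, SD, n = 2) and 57.2 and 75.2% in succinate (66.2 ± 12.7%, SD, n = 2). ARHGEF10L, the exchange factor gene (chr1:17513435-17697875), was covered over 9.21 and 10.5% in control (9.87 ± 0.924%, SD, n = 2) and 23.8 and 32.2% in succinate (28.0 ± 5.90%, SD, n = 2). The treatments overlapped in neither. In all, PADI4 and ARHGEF10L were the 2 of 7 members with higher cover in both succinate libraries than in both control libraries, and 0 of 7 were lower. Over all protein-coding genes 3.71% were higher and 1.13% lower. Among the 5015 genes with any H3K27me3 peak 14.8% were higher, and nothing is read from the members' count because this contrast chose the locus.

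**Figure D2:**
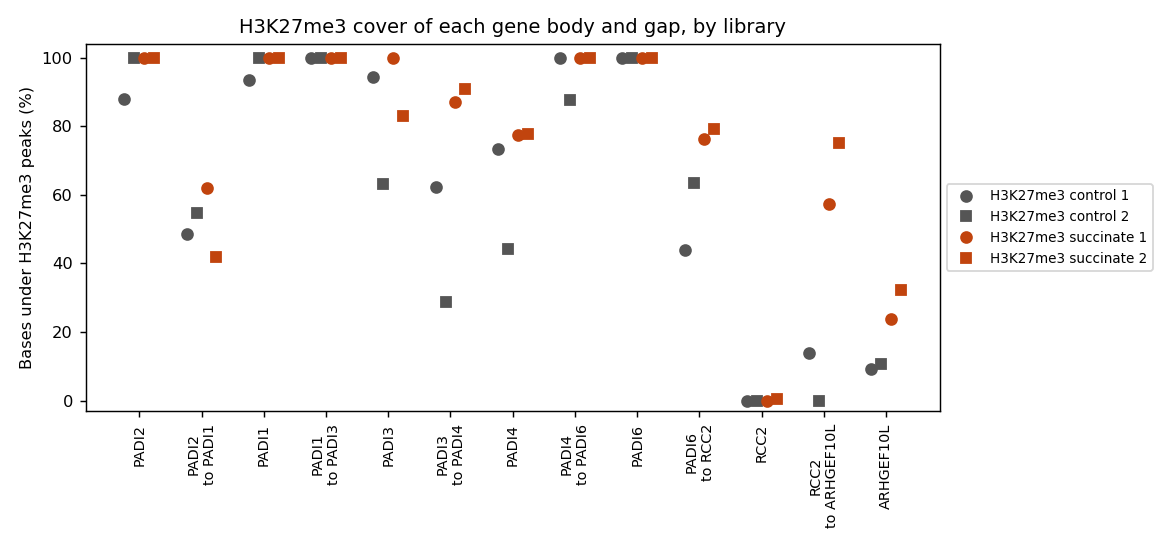
Percent of bases under H3K27me3 peaks (vertical axis) for each gene body and gap in chromosomal order, with 1 point per library (control grey, succinate orange, circles replicate 1, squares replicate 2). The gap from RCC2 to ARHGEF10L stands at 13.8 and 0% in control and at 57.2 and 75.2% in succinate, while RCC2 is at or near 0 in all 4.

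Merging the peaks of all 4 libraries gave 8 H3K27me3 regions in the window. Of these, 5 were present in all 4 libraries, 1 in all but control 2, and 2 only in both succinate libraries. Over the chromosomes 25.9% of 16111 regions were present in all 4 libraries and 0.118%, or 19 regions, only in succinate, while 100 were present only in control. These shares depend on the unequal lists: with equal numbers of peaks 438 regions (7.20%) were only in succinate and 145 only in control. At a common floor, the highest of the 4 floors in steps, 862 of 5401 were only in succinate and 9 only in control. Which treatment had more such regions thus depended on the setting. The intergenic succinate-only region, chr1:17474028-17497767, was covered over 15536 bp in succinate 1 and 23740 bp in succinate 2. The ARHGEF10L region, chr1:17548680-17577120, was covered over 13774 and 28272 bp. By length they ranked the third and the first of the 19 found with the full lists. The region present in all but control 2, chr1:17439537-17470115, was also covered more in succinate, with 4667 and 0 bp in control against 14356 and 30579 bp in succinate. Beyond the last succinate-only region, the remaining 120.8 kb of ARHGEF10L held 0 bases of H3K27me3 in 3 libraries and 0.184% in succinate 2.

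The total signal of these peaks was set against the control floors on 2 scales. The ARHGEF10L peak had a total signal of 268528 steps in succinate 1 and 666000 in succinate 2. The intergenic peak had 288500 and 544741 steps. These were 5.17 to 12.8 times the floor of control 1 and 1.27 to 3.15 times the floor of control 2. A step was worth 6.18 and 4.72 units of the deposited signal in control but 9.18 and 0.285 in succinate, and what a step stands for in fragments is unknown. In the deposited signal the succinate 1 peaks were 2.47 to 8.26 times the control floors, whereas the succinate 2 peaks were 0.156 to 0.593 times those floors. Whether the peaks exceed the control floors thus depends on the scale for succinate 2, and the part of depth and threshold in the difference was not tested. Within their own lists the 4 peaks were of middle rank, within the top 52.8 to 63.1%. Their signal per base was 0.526 to 0.690 times that of the median peak of the library. When each list was reduced to its upper 50% by total signal, 0 of these 2 regions were left in any library. At the highest of the 4 floors in steps, both regions kept a peak in succinate 2 only. With equal numbers of peaks in each list the ARHGEF10L region had none left in succinate 1.

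**Figure D3:**
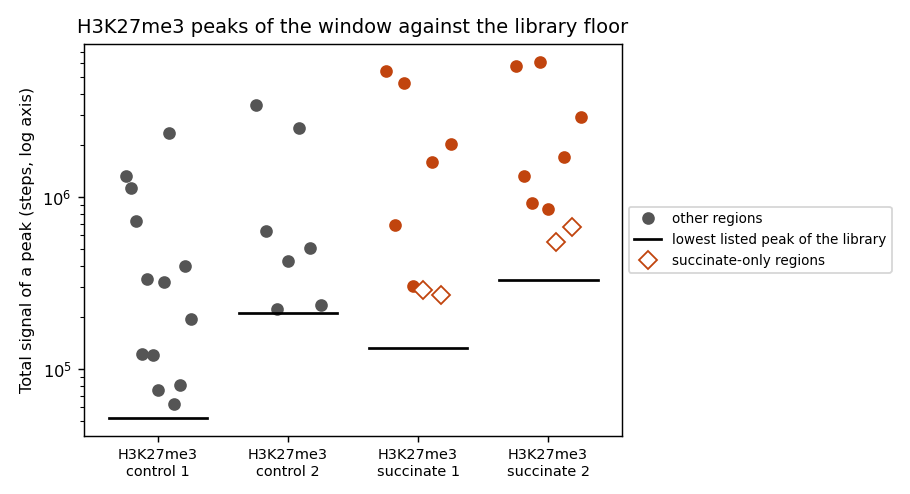
Total signal in steps (log axis) of each H3K27me3 peak that overlaps the window, by library, with the floor of each library as a black line and peaks of the 2 succinate-only regions as open diamonds. The diamonds, from 268528 to 666000 steps, lie above both control floors on this scale of steps, though not for succinate 2 in the deposited signal, and below most other succinate peaks.

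Counted base by base, 149.5 kb of the window lay under H3K27me3 in all 4 libraries and 174.7 kb in none. Both succinate libraries and no control library covered 63.0 kb, and both control libraries and no succinate library covered 3.43 kb. The first of these made up 19.4% of the covered bases in the window, against 2.97% over the chromosomes, and the second 1.05% against 1.19%. Nothing is read from the first share, because this pattern chose the locus. Of the 63.0 kb, 50.9 kb lay between RCC2 and ARHGEF10L or in ARHGEF10L, and the rest lay among the PADI genes and up to RCC2. The 3.43 kb with the opposite pattern were the single stretch in PADI4.

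At ARHGEF10L, the peak near the CG-rich transcript start printed above ended on different sides of that start. It ended 4703 and 2675 bp before the start at 17539698 in control, and 3918 and 4586 bp past it in succinate. The promoter windows of the table run from 250 bases before to 50 bases after a start. The window at 17539448 to 17539747 and its neighbour at 17539054 to 17539353 were under H3K27me3 in both succinate libraries and in neither control library. They were so too with equal numbers of peaks, with the top 50% of peaks and at the common floor in steps. A common floor in the deposited signal was not tried. Over all windows 0.424% showed this pattern. Both windows lie under the same peak in each succinate library, so they are not independent. Nothing is read from this share or its persistence, because the same contrast chose the locus. The CG-poor ARHGEF10L window at 17519947 to 17520246 was under H3K27me3 in all 4 libraries, and the 4 windows further into the gene were covered in none.

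Among the other members the promoter windows of PADI2, PADI1 and PADI6 were under H3K27me3 in all 4 libraries, as were 8.12% of all windows. The PADI4 window was covered in all but control 2, where the nearest peak lay 1.12 kb away. The RCC2 window was covered in none, and its nearest peak lay 0.750 kb away in succinate 2 and 10.97 kb or more away in the others. The CG-rich PADI2 and CG-poor PADI1 starts were both covered in every library, and the CG-rich RCC2 start was free. The ARHGEF10L start with 33 CG was covered in both succinate libraries only. A relation of CG content to H3K27me3 was not tested.

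**Figure D4:**
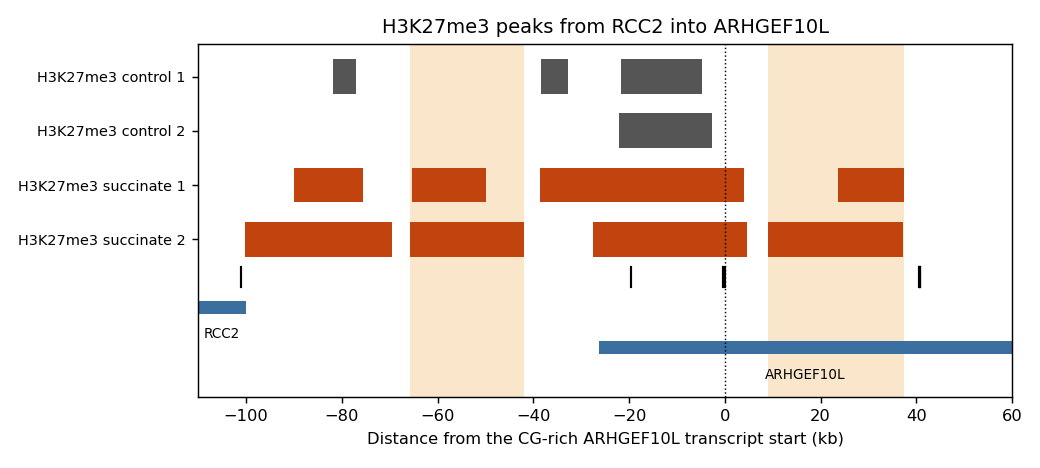
H3K27me3 peaks from RCC2 into ARHGEF10L in 4 libraries (rows), against the distance in kb from the CG-rich ARHGEF10L transcript start (dotted line), with transcript starts of the promoter table as black ticks, gene bodies in blue and succinate-only regions shaded. The peak left of the start ends 4703 and 2675 bp before it in control and 3918 and 4586 bp past it in succinate.

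Ksu was not used to choose the locus and was tested between treatments. Ksu peaks in the window were short and scattered, numbering 21 and 75 in control against 138 and 151 in succinate, with median widths from 0.400 to 1.10 kb. They covered 4.90 and 6.83% of the window in control against 21.8 and 17.3% in succinate. Ksu lists as a whole also covered more in succinate, so cover was divided by that of the chromosomes in the same library. The relative cover was 1.86 and 1.13 in control against 3.54 and 1.60 in succinate. Succinate 1 was the highest, and succinate 2 lay between the control libraries. On the log2 scale the means were 0.53 ± 0.51 and 1.25 ± 0.81 (SD, n = 2), a difference of 0.72 (exact permutation p = 0.667, two-sided). The smallest p that 6 arrangements of 4 libraries allow is 0.333, so no difference could pass 0.05, and the difference was about as large as the pooled SD of 0.68.

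Against 6101 windows of 500 kb, the locus had more Ksu than 85.3 and 59.1% in control and than 99.5 and 94.5% in succinate. Relative Ksu cover was higher in both succinate libraries in 35.9% of such windows and lower in both in 22.0%, and the locus was in neither class. Ksu cover was also summed by the H3K27me3 pattern of the bases. Where H3K27me3 was in both succinate libraries and no control library, relative Ksu cover was 0.932 and 1.13 in control against 3.12 and 1.62 in succinate. Where no library had H3K27me3, it was 1.35 and 0.985 in control against 3.17 and 1.79 in succinate. Where all 4 libraries had H3K27me3, it was 2.82 and 1.31 in control against 4.77 and 1.30 in succinate. In the remaining 112.8 kb it was 1.91 and 1.10 in control against 2.70 and 1.70 in succinate. Succinate 1 was the highest library in all 4 classes, and the treatments overlapped in the last 2.

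By gene, PADI4 gave a relative Ksu cover of 0.354 and 1.41 in control against 2.45 and 1.93 in succinate. RCC2 gave 0 and 1.76 in control against 3.27 and 2.56 in succinate. These were the 2 of 7 members with higher values in both succinate libraries than in both control libraries, and 0 of 7 were lower. Over all protein-coding genes 35.5% were higher and 4.06% lower, so the members' share lies near that background. ARHGEF10L gave 1.67 and 1.06 in control against 3.29 and 1.29 in succinate, and its treatments overlapped. PADI6 gave 7.85 and 0.386 in control against 6.38 and 1.72 in succinate, so its control libraries were the highest and the lowest of the 4. For PADI2 they were also the highest and the lowest, with 5.32 and 0.968 in control against 3.88 and 2.44 in succinate. PADI1 gave 2.32 and 1.09 in control against 4.75 and 0.891 in succinate, and PADI3 gave 1.78 and 0.433 in control against 4.48 and 1.57 in succinate. Control 1 and succinate 1 were the higher library of their treatment for 5 of these genes, PADI4 and RCC2 being the exceptions in control.

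**Figure D5:**
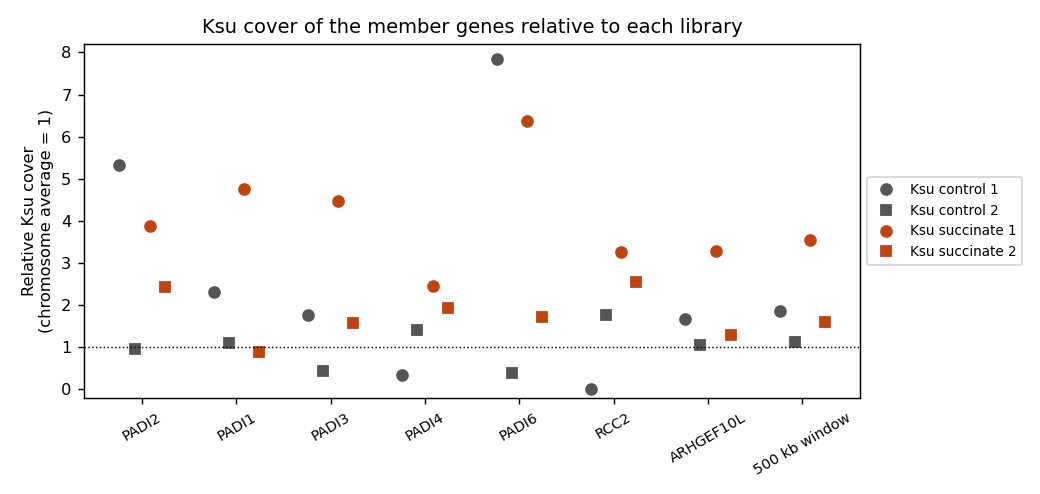
Relative Ksu cover (vertical axis, cover of the gene divided by cover of the chromosomes in that library, dotted line at 1) for the 7 genes and the 500 kb window, with 1 point per library (control grey, succinate orange, circles replicate 1, squares replicate 2). The treatments separate for PADI4 and RCC2 and overlap for the other 5 genes and for the window.

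A limma fit over the 13788 gene bodies of at least 10 kb with a mean Ksu cover of at least 1% included all 7 members. It called 0 genes in each direction at an adjusted p under 0.05 (0.0% of those tested), with a smallest adjusted p of 0.310. At an unadjusted p under 0.05 it gave 2033 genes higher and 44 lower in succinate. The log2 difference, on the scale of log2 of relative cover plus 0.5, had a median of 0.60 over all genes and 0.52 over the members. RCC2 differed by 1.67 (SE 0.76, adjusted p = 0.350, limma). PADI3 differed by 1.14 (SE 0.67, adjusted p = 0.428, limma) and PADI4 by 1.07 (SE 0.55, adjusted p = 0.383, limma). The other 4 members lay between 0.30 for PADI2 and 0.52 for PADI6, with adjusted p from 0.627 to 0.840 in limma. Without the division by library cover the median of all genes was 1.87. In simulated data the fit found 0.5% of genes changed by 1 on the log2 scale, 25.5% of those changed by 2 and 95.0% of those changed by 3, with 200 genes changed in each case. It also made 6, 9 and 14 false calls beside 1, 51 and 190 true ones. The simulated libraries had independent noise and no difference shared across genes, whereas the real median difference was 0.60. These rates may therefore not hold for the real libraries.

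Single Ksu peaks rarely recurred. In the window 1 interval of 146 bp, chr1:17561937-17562082 in ARHGEF10L, was under Ksu in all 4 libraries. It lies inside the ARHGEF10L succinate-only region, under the H3K27me3 peak of succinate 2. Both succinate libraries and no control library shared 47 intervals with 17159 bp, and both control libraries and no succinate library shared 3 with 818 bp. Of the bases under Ksu in the window these were 8.22 and 0.392%, against 3.67 and 0.766% over the chromosomes, in lists that covered more in succinate. The Ksu peaks with the highest total signal lay in PADI3 in control 1, in the RCC2 to ARHGEF10L gap in control 2, in ARHGEF10L in succinate 1 and in the PADI3 to PADI4 gap in succinate 2. The leading peak was thus a different one in each library. Of the 12 member promoter windows, 6 had a Ksu peak in some library, against 29.1% of all windows, and each of these had it in 1 library only. Accordingly 0 of the 12 had Ksu in both succinate libraries and in neither control library, a pattern of 1.43% of all windows.

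Genes related to the members by function showed where H3K27me3 lay beyond the locus. Of 7 genes for deiminase substrates, 2 had H3K27me3 in all 4 libraries, against 12.3% of all protein-coding genes. These were KRT1, an epidermal keratin, and GFAP, the astrocyte filament protein, both over 100% of their bodies. The filament protein VIM, the myelin protein MBP and the keratin KRT10 had none in any library. FLG (filaggrin) and TCHH (trichohyalin) had H3K27me3 in control 1 only, over 27.9 and 56.4%. Of 4 oocyte partners of PADI6, 3 were marked in all 4 libraries, against 12.3% of all protein-coding genes. Of these, KHDC3L and OOEP lie close together on chromosome 6 and are not independent. KHDC3L was covered over 100% throughout, and TLE6 over 46.8 and 25.2% in control against 55.2 and 54.3% in succinate. OOEP gave 7.07 and 13.6% in control against 18.8 and 18.8% in succinate, so TLE6 and OOEP were the 2 of 4 with higher cover in both succinate libraries, against 3.71% of all genes and 14.8% of those with any H3K27me3 peak.

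Of 4 chromosomal passenger genes, the partners of RCC2, BIRC5 alone had any H3K27me3, with 0.387% in succinate 2. Of all 20033 protein-coding genes 5015 had any, so this count does not set these 4 genes apart. Among markers of cell types known for PADI genes, MPO (neutrophil) and KRT14 (keratinocyte) were covered over 100% in all 4 libraries. The other neutrophil markers did not follow: ELANE had H3K27me3 in succinate 2 only, over 59.9%, and CTSG in control 1 only, over 100%. The keratinocyte marker KRT5 gave 31.8 and 31.2% in control against 97.8 and 100% in succinate, and IVL had none. Of 3 oocyte markers ZP3 was covered over 24.5 to 30.1% in all 4 libraries, FIGLA over 5.12% in succinate 1 only, and GDF9 had none. Medians over these short lists rest on few genes, and the median over all protein-coding genes was 0% in each library. In limma 0 of the genes of these lists that entered the fit were called for Ksu in either direction. The same held for all 13788 genes tested, so this does not set the lists apart.

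Of the neighbouring genes outside the locus, ACTL8, the next gene after ARHGEF10L, gave 76.6 and 65.7% in control against 82.6 and 74.8% in succinate. IGSF21 gave 77.7 and 55.0% in control against 66.8 and 72.0% in succinate. MFAP2 lay between 94.3 and 94.6% in all 4 libraries, and CROCC and ATP13A2 had none. SDHB, which encodes a subunit of succinate dehydrogenase and lies next to PADI2, had 0.940% in control 1 and 0 in the other libraries. Of these 6 neighbours 0 had higher cover in both succinate libraries than in both control libraries, a pattern of 3.71% of all genes, so this count does not set them apart.

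Among 14341 genes of at least 10 kb, the 5 closest to ARHGEF10L were found by the Euclidean distance over the 4 H3K27me3 percentages. They were SPIB at 8.80 percentage points, SHH at 9.88, VWF at 11.2, TMEM177 at 11.9 and DMTN at 11.9. SPIB, a B cell transcription factor, gave 4.97 and 9.98% in control against 28.1 and 38.6% in succinate. VWF, the von Willebrand factor gene of endothelium, gave 16.7 and 16.5% in control against 25.4 and 26.6% in succinate. Because likeness to ARHGEF10L chose these genes, their difference between treatments is a description only.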

How the data were processed

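Peak lists of 8 CUT&Tag libraries were used, each called on 1 library. Per the submitters' processing notes the build was hg38 and the caller SEACR. The deposited values are coordinates and signal (total and highest coverage per peak), made by the authors. The aligner, the scaling and the threshold are not given in the sources used here. Highest signals were whole multiples of a library step in 100% of peaks within 0.02. Cover is the share of bases under peaks on 24 chromosomes (3056 Mb). A library was present in a merged region when a peak overlapped it. Ksu cover was tested by exact permutation and by limma 3.58.1 (R 4.3.3), as log2 of relative cover plus a pseudocount of 0.5, with Benjamini-Hochberg adjustment. The fit was tested on simulated data. Gene extents and promoters came from RefSeq tables (GRCh38.p14), in which all 7 members matched as genes. Exon and intron annotation was not used. One related gene list is not reported here.

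The members and gene lists were chosen with earlier results of these data known. Named were the members, 6 neighbours, the related lists and marker lists, and the 5 genes most like ARHGEF10L. The stretch from RCC2 to the last succinate-only region and the base patterns were described after their values were seen. Alternatives were equal numbers of peaks per antibody, the top 50% of peaks, a common floor, merging within 1 kb, Ksu peaks of at least 500 bp, presence at 50% cover, the span of the member genes, other pseudocounts and filters, no scaling, a limma trend, the replicate block and each library left out.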

Additional observations from a re-analysis of the deposited data

How the results depend on the processing

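Of 185 alternative values for 19 results, 167 were labelled the same, 11 moved and 7 reversed in sign. The H3K27me3 results had no test, so moved there means a change in size. The PADI4 difference in cover, for example, went from 18.7 to 47.3 percentage points at the common floor. For Ksu, limma called 0 genes in every setting, so no member value could change its side of the threshold. The permutation p of the window could not fall below 0.333 in any setting. The count of 167 is therefore not read as robustness. The H3K27me3 cover of the window differed by 14.2 percentage points with the top 50% of peaks, and by 17.1 to 25.3 when each library was left out. The count of regions only in succinate was 0 with the top 50% of peaks, 0 at the common floor and 1 with presence at 50% cover, and 2 to 3 when each library was left out. With equal numbers, set by the 5531 peaks of the shortest H3K27me3 list, it was again 2, but chr1:17439537-17470115 took the place of the ARHGEF10L region. The succinate 1 peak of the ARHGEF10L region ranked 5585 in its list and was not kept. Nor was the control 1 peak in chr1:17439537-17470115, of rank 16100. The cause of the difference between treatments was not tested.

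The log2 difference of Ksu cover of the window ranged from 0.15 (without succinate 1) to 1.29 (without succinate 2), and was 1.49 with equal numbers and 1.74 without scaling (exact permutation p = 0.333 for both). It had no value at the common floor, where control 2 had no peak left in the window. Without control 2, H3K27me3 cover of PADI3 reversed to -2.72 percentage points (28.4 without control 1) and Ksu differences to -0.70 for PADI2, -0.062 for PADI1 and -1.10 for PADI6 (2.14 without control 1). Without succinate 1, Ksu differences reversed to -0.61 for PADI1, -0.30 for PADI6 and -0.042 for ARHGEF10L. Without succinate 2 they were 1.31 for PADI1 and 1.04 for ARHGEF10L. With top 50% peaks, the ARHGEF10L difference in H3K27me3 cover was 6.74 percentage points.

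Replicate numbers gave no stated pairing. The deviations of same-numbered Ksu libraries correlated at 0.118 over 13788 gene bodies. With the replicate block limma called 0 genes, with 2494 higher and 69 lower at an unadjusted p under 0.05. The window difference of 0.72 then had an exact permutation p = 0.5, the smallest that the 4 arrangements within the block allow. Limma called 0 genes under every alternative tried.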
